A study of Homo sapiens with 21 samples.

Results

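Polyamines are made and broken down by a short set of enzymes, and the transcripts of 8 genes of this set were followed: ODC1, AMD1, SRM and SMS, which make polyamines, SAT1, which starts their breakdown, and OAZ1, OAZ2 and AZIN1, which set the stability of the ODC1 protein. They were taken by name, as the rows whose Ensembl identifier belongs to these symbols, and all 8 of them were found among 54042 genes. The cells were MV4-11, a human leukaemia line of mixed B-lymphoid and myelomonocytic type with a KMT2A rearrangement. There were 7 groups of 3 libraries: wild type cells given the solvent DMSO, wild type cells given ironomycin (AM5, a derivative of salinomycin) for 6 h, wild type cells given ironomycin for 24 h, HK2 knockout cells given ironomycin for 24 h, HK2 knockout cells given DMSO, PGP knockout cells given ironomycin for 24 h, and PGP knockout cells given DMSO. HK2 is a hexokinase and PGP is a phosphoglycolate phosphatase. The labels give no dose, no time for DMSO, no statement on how the knockouts were made or whether each is 1 clone, and none on whether replicates were separate cultures. P-values therefore measure the spread between these libraries, which may be technical, and the effects of ironomycin and of time in culture cannot be told apart.

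Polyamine synthesis starts when ornithine decarboxylase (ODC1) turns ornithine into putrescine. S-adenosylmethionine decarboxylase (AMD1) supplies the aminopropyl groups that spermidine synthase (SRM) and spermine synthase (SMS) add to make spermidine and spermine. SAT1 acetylates spermidine and spermine, which marks them for oxidation or export. The antizymes OAZ1 and OAZ2 bind the ODC1 protein, send it to the proteasome and slow polyamine uptake, and the antizyme inhibitor AZIN1 resembles ODC1 and draws antizymes away from it. Much of this control acts on translation and protein stability, which transcript counts do not measure. Proliferating cells, leukaemia cells among them, are known for a high demand for polyamines.

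The libraries were sequenced from transcript 3′ ends and held between 3829274 and 6069264 counts each, with a median of 4823817. Levels are given as CPM, counts scaled to library size with TMM factors. At these depths 3 counts correspond to 0.494 to 0.783 CPM, and the lowest count of any of the 8 genes in a library was 86, for OAZ2. CD33, FLT3, HOXA9 and MEIS1, markers of KMT2A-rearranged myeloid leukaemia, were found in all 21 libraries at 30.1 CPM or more. CD14 was at 0 in 14 libraries and CEBPA was at 0 in 20 libraries, while EPCAM, KRT18 and PECAM1, markers of epithelium and endothelium, had no count in any library. Of the other markers of further cell types, COL1A1 was at 0 in 13 libraries, CD3E in 15 and HBB in 8, with highest levels of 0.850, 1.86 and 5.65 CPM. The B-lymphoid marker CD79A was at 0 in 8 libraries, with a highest level of 1.05 CPM. Of the targeted genes, HK2 stood at 22.0 ± 2.49 CPM in HK2 knockout cells in DMSO and 52.6 ± 14.7 CPM in wild type cells in DMSO, and PGP at 75.4 ± 7.10 CPM in PGP knockout cells in DMSO and 90.6 ± 4.49 CPM in wild type cells in DMSO (SD, n = 3 each), but a 3′ tag need not report a change elsewhere in a gene and so does not check the knockouts. Replicate 2 of wild type at 6 h stood apart from its group, with a standard deviation of its log2 deviations from the group mean of 0.675, against 0.332 to 0.480 in the other 20 libraries. Results at 6 h are therefore also given without it.

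The promoters of the synthesis genes that fell most and of SAT1, the gene that rose, are shown because these genes moved in opposite directions. They are RefSeq sequences of GRCh38.p14, from 250 bases before to 50 bases after each annotated start, read 5′ to 3′ on the strand of the gene, and 7 of the 8 genes had an entry. Capitals mark the E-box CACGTG, the letters that MYC and MAX are known to bind, and ODC1 is a textbook target of MYC.
ODC1, second of 2 entries, chr2:10447963-10448262, minus strand: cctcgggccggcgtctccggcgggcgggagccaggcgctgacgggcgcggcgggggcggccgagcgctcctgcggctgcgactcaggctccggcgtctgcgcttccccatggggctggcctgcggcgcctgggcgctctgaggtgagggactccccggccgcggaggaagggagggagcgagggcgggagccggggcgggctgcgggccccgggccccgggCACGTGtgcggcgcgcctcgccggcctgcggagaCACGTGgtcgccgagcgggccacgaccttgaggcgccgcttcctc
SRM, chr1:11059969-11060268, minus strand: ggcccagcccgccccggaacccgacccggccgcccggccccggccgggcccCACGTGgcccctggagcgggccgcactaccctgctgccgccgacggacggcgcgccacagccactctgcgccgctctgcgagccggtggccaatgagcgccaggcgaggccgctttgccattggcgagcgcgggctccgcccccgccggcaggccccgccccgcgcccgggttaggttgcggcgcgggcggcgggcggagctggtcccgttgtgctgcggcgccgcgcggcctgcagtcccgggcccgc
AMD1, first of 3 entries, chr6:110874535-110874834, plus strand: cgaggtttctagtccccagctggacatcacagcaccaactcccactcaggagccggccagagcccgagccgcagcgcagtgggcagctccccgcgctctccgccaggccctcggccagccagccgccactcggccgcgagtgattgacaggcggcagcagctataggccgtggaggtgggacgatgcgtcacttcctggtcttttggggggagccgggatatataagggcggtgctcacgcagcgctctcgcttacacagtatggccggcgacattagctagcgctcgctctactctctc
SAT1, chrX:23782923-23783222, plus strand: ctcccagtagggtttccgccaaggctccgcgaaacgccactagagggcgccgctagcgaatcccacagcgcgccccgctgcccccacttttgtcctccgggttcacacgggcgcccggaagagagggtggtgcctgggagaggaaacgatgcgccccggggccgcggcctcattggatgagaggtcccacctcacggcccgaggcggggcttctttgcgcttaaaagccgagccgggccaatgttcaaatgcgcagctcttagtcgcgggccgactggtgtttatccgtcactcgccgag
The ODC1 window shown, of the second entry, held the E-box at 2 places, starting 29 bases before and 6 bases after the annotated start. The SRM window held it at 1 place, starting 199 bases before the start. On both strands, 7.43% of 27305 promoters of this length held these letters, counting only the first entry of each gene. The windows of AMD1 and SAT1 held neither the E-box nor any of 3 other motifs searched on both strands: the ATF4 and C/EBP element TGATGNAA, present in 3.67% of the promoters, the antioxidant element TGACNNNGC, present in 13.6%, and the cyclic AMP element TGACGTCA, present in 1.98%. The first ODC1 entry held no E-box, so ODC1 is not among the promoters counted with it. That entry held the antioxidant letters at 1 place, starting 5 bases before its start. A match is a description of the letters and no match says only that they are not in this window.

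AMD1 (ENSG00000123505), whose product feeds both spermidine and spermine synthesis, fell in all 4 comparisons of ironomycin with DMSO. In wild type cells it stood at 274, 265 and 268 CPM in DMSO, at 146, 156 and 143 CPM after 6 h of ironomycin and at 166, 148 and 155 CPM after 24 h. The ironomycin libraries lay far below the DMSO libraries and close to each other at the 2 times. In bulk libraries a lower level can come from fewer cells that carry the transcript or from less of it per cell, and the 2 cannot be told apart. The log2 fold change was -0.86 ± 0.10 at 6 h (SE, edgeR adjusted p = 1.1e-06), where it fell by 44.8%, and -0.78 ± 0.10 at 24 h (edgeR adjusted p = 1.8e-06), where it fell by 41.8%. Between 24 h and 6 h the difference was 0.07 ± 0.10, with a 95% interval from -0.12 to 0.27. AMD1 in HK2 knockout cells stood at 157, 141 and 138 CPM with ironomycin, against 275, 261 and 248 CPM in DMSO. In PGP knockout cells it stood at 159, 143 and 136 CPM with ironomycin, against 273, 235 and 236 CPM in DMSO. The same gap between ironomycin and DMSO libraries was seen in both knockouts, with no overlap. The log2 fold changes were -0.85 ± 0.10 in HK2 knockout cells (edgeR adjusted p = 8.4e-07) and -0.76 ± 0.10 in PGP knockout cells (edgeR adjusted p = 2.6e-06). These calls held when any 1 library of the 2 groups was left out, and without replicate 2 of wild type at 6 h the change at 6 h was -0.90 ± 0.10 (edgeR adjusted p = 1.4e-06). The copy AMD1P3, which could take up AMD1 reads, held 211 counts over all 21 libraries, against at least 617 counts for AMD1 in each library.

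**Figure D1:**
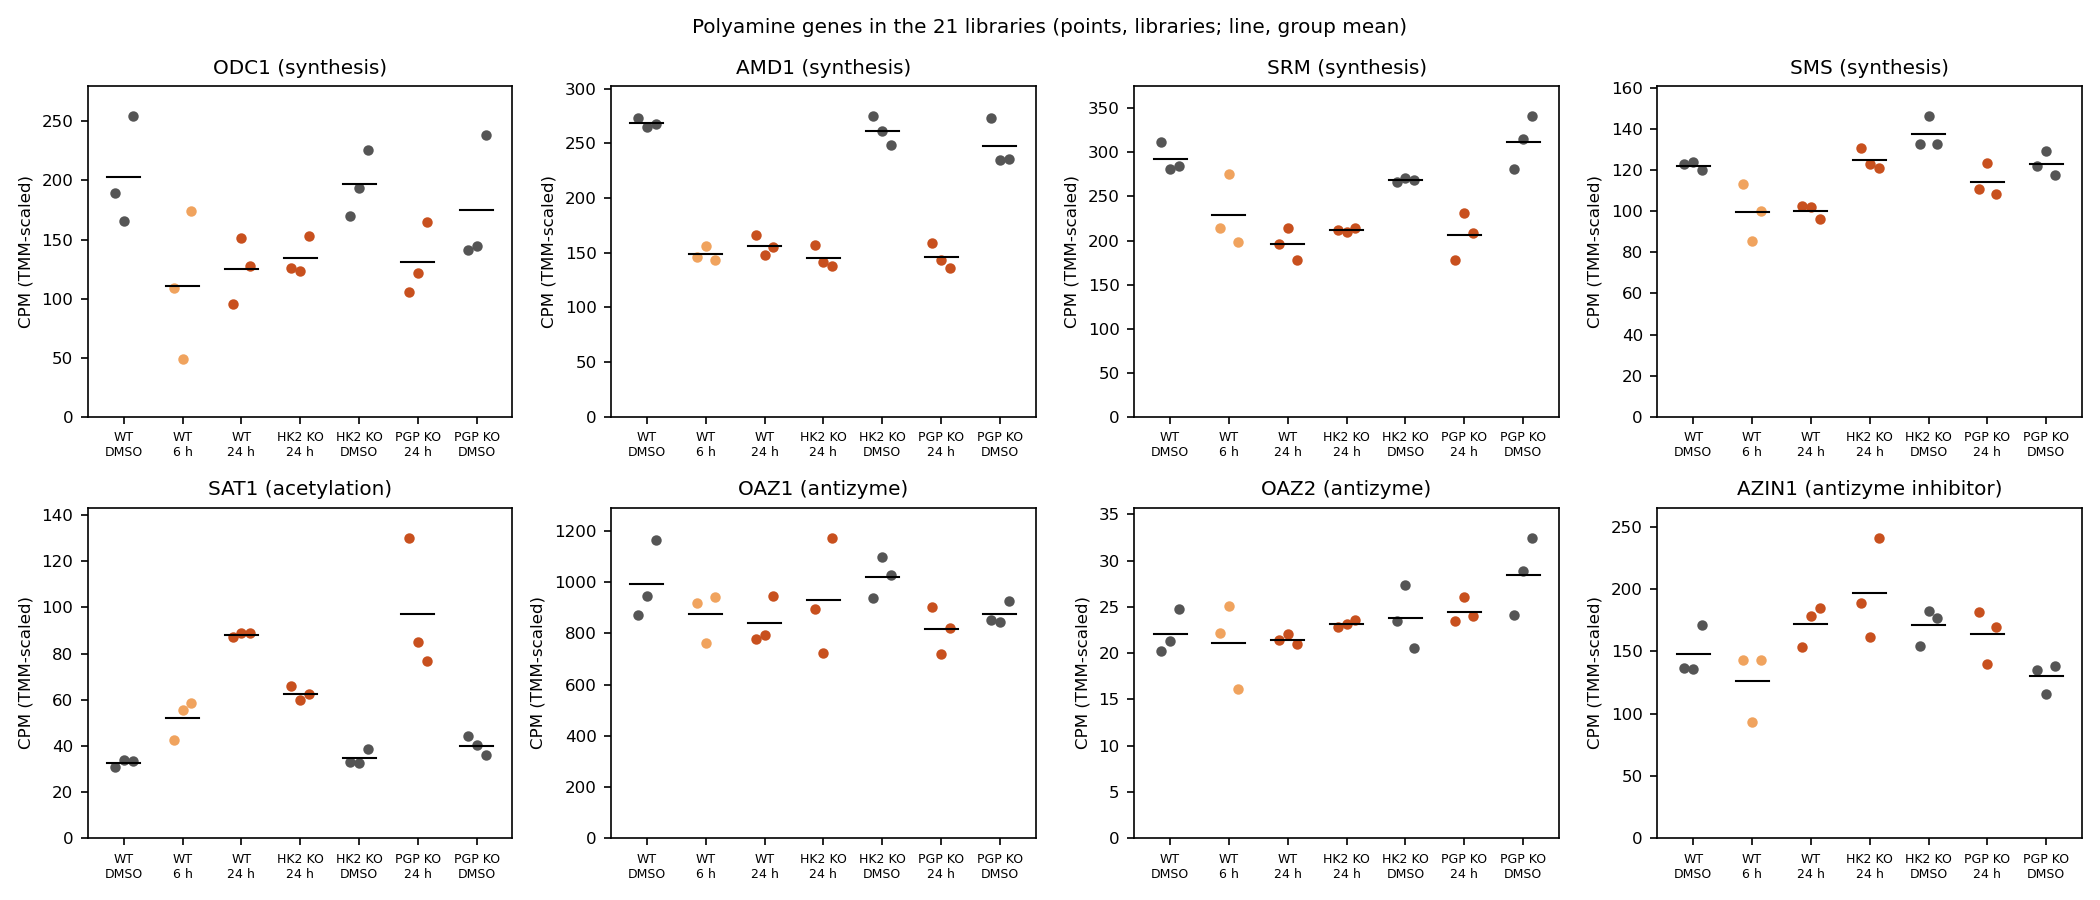
Level of each of the 8 genes in CPM (vertical axis, TMM-scaled, starting at 0) in the 21 libraries (points) of the 7 groups, with the group mean as a line; 6 h and 24 h are hours of ironomycin. AMD1 and SRM lie lower and SAT1 higher in every ironomycin group than in its DMSO group, and OAZ1 and OAZ2 overlap throughout.

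SRM (ENSG00000116649), which makes spermidine, also fell in all 4 comparisons with DMSO, with log2 fold changes smaller than those of AMD1 in each; the difference between the genes was not tested. In wild type cells it stood at 312, 282 and 285 CPM in DMSO, at 214, 275 and 199 CPM after 6 h and at 196, 215 and 178 CPM after 24 h. No ironomycin library reached the lowest DMSO library, although replicate 2 at 6 h came close to it. The log2 fold change was -0.35 ± 0.12 at 6 h (edgeR adjusted p = 0.0354) and -0.58 ± 0.12 at 24 h (edgeR adjusted p = 6.7e-04). In PGP knockout cells SRM stood at 178, 231 and 209 CPM with ironomycin, against 281, 315 and 341 CPM in DMSO, a log2 fold change of -0.60 ± 0.12 (edgeR adjusted p = 4.4e-04). In HK2 knockout cells it stood at 212, 210 and 214 CPM with ironomycin, against 267, 271 and 269 CPM in DMSO, a log2 fold change of -0.34 ± 0.12 (edgeR adjusted p = 0.0311). The libraries of each HK2 knockout group agreed to within a few CPM, and the 2 groups lay well apart. The calls at 24 h in wild type and PGP knockout cells held without any 1 library. The call at 6 h held without replicate 2 of that group (-0.51 ± 0.11, edgeR adjusted p = 0.00232) and was lost without any other library of the 2 groups (edgeR adjusted p = 0.0585 to 0.163 without DMSO replicates 1, 2 or 3 or 6 h replicates 1 or 3) and with the 2 groups fitted alone (edgeR adjusted p = 0.148). The call in HK2 knockout cells was lost without any 1 of the 6 libraries (edgeR adjusted p = 0.0538 to 0.0758).

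ODC1 (ENSG00000115758), the first enzyme of the pathway, was lower on average in every ironomycin group than in its DMSO group, but its libraries spread widely. In wild type cells it stood at 189, 165 and 254 CPM in DMSO, at 109, 49.1 and 174 CPM after 6 h and at 95.1, 151 and 128 CPM after 24 h. At 6 h the highest library reached into the DMSO range and the lowest was far below all others, while at 24 h all 3 libraries lay below DMSO. ODC1 fell at 6 h, with a log2 fold change of -0.87 ± 0.29 (edgeR adjusted p = 0.0364). At 24 h the log2 fold change was -0.70 ± 0.29 and did not pass (95% interval -1.31 to -0.10, edgeR adjusted p = 0.0735). The call at 6 h held without DMSO replicate 2 (-1.01, edgeR adjusted p = 0.0316) and without 6 h replicate 3 (-1.36, edgeR adjusted p = 0.00175). It was lost without DMSO replicate 1 (-0.93, edgeR adjusted p = 0.0544), DMSO replicate 3 (-0.68, edgeR adjusted p = 0.153), 6 h replicate 1 (-0.87, edgeR adjusted p = 0.0717) and 6 h replicate 2 (-0.52, edgeR adjusted p = 0.142), by DESeq2 (adjusted p = 0.0521) and with the 2 groups fitted alone (edgeR adjusted p = 0.167). The missed call at 24 h passed without the filter on low counts (edgeR adjusted p = 1.9e-06), with the replicate number as a block (edgeR adjusted p = 0.0194) and when the 2 groups were fitted alone (edgeR adjusted p = 0.00459). With ironomycin, ODC1 in HK2 knockout cells stood at 126, 124 and 153 CPM, against 170, 194 and 226 CPM in DMSO, and the groups did not overlap. In PGP knockout cells it stood at 106, 122 and 165 CPM with ironomycin, against 141, 145 and 239 CPM in DMSO, and the groups overlapped. Neither difference passed, at -0.55 ± 0.29 in HK2 knockout cells (edgeR adjusted p = 0.165) and -0.42 ± 0.29 in PGP knockout cells (edgeR adjusted p = 0.302). Without the filter on low counts both passed, at adjusted p = 3.4e-04 for HK2 knockout cells and 0.0157 for PGP knockout cells in edgeR, and the HK2 knockout groups fitted alone also passed (edgeR adjusted p = 0.00386).

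SMS (ENSG00000102172), which makes spermine, had the smallest changes of the 4 synthesis genes in the fit. It stood at 123, 124 and 120 CPM in DMSO, at 113, 85.6 and 100 CPM after 6 h and at 103, 102 and 96.0 CPM after 24 h in wild type cells. All ironomycin libraries lay below all DMSO libraries there, by a small margin for replicate 1 at 6 h. SMS fell in wild type cells, with a log2 fold change of -0.29 ± 0.10 at both 6 h (edgeR adjusted p = 0.0433) and 24 h (edgeR adjusted p = 0.0370). At 6 h the call held without 6 h replicate 1 (-0.39, edgeR adjusted p = 0.0114) and was lost without any other library of the 2 groups, DMSO replicates 1 to 3 and 6 h replicates 2 and 3 (edgeR adjusted p = 0.0701 to 0.189, with -0.20 and 0.189 without 6 h replicate 2), without the filter on low counts (edgeR adjusted p = 0.168) and with the 2 groups fitted alone (edgeR adjusted p = 0.196). At 24 h it was lost without DMSO replicate 1 (-0.30, edgeR adjusted p = 0.0624), DMSO replicate 2 (-0.30, edgeR adjusted p = 0.0622), 24 h replicate 2 (-0.31, edgeR adjusted p = 0.0508) or 24 h replicate 3 (-0.28, edgeR adjusted p = 0.0828), and without the filter on low counts (edgeR adjusted p = 0.144). SMS in HK2 knockout cells stood at 131, 123 and 121 CPM with ironomycin, against 133, 146 and 133 CPM in DMSO, and in PGP knockout cells at 111, 123 and 108 CPM with ironomycin, against 122, 129 and 118 CPM in DMSO. The HK2 knockout groups were just separate and the PGP knockout groups overlapped. The log2 differences of -0.14 ± 0.10 in HK2 knockout cells (95% interval -0.35 to 0.07, edgeR adjusted p = 0.337) and -0.11 ± 0.10 in PGP knockout cells (95% interval -0.32 to 0.10, edgeR adjusted p = 0.461) did not pass.

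SAT1 (ENSG00000130066), the acetyltransferase that opens polyamine breakdown, was the only one of the 8 genes called higher, and it rose in all 4 comparisons with DMSO. In wild type cells it stood at 30.7, 33.8 and 33.7 CPM in DMSO, at 42.5, 55.7 and 58.7 CPM after 6 h and at 87.1, 88.9 and 88.8 CPM after 24 h. The 3 groups did not overlap, with DMSO lowest and 24 h highest. SAT1 rose 1.60-fold at 6 h, a log2 fold change of 0.68 ± 0.16 (edgeR adjusted p = 0.00440), and 2.69-fold at 24 h, a log2 fold change of 1.43 ± 0.16 (edgeR adjusted p = 5.4e-07). From the direct comparison it was 1.69-fold higher at 24 h than at 6 h (0.75 ± 0.16, edgeR adjusted p = 0.00164), a comparison for which no DMSO pair exists. SAT1 in HK2 knockout cells stood at 65.8, 59.7 and 62.3 CPM with ironomycin, against 33.3, 32.6 and 38.6 CPM in DMSO, a 1.80-fold rise (0.84 ± 0.16, edgeR adjusted p = 3.7e-04). In PGP knockout cells it stood at 130, 85.1 and 76.8 CPM with ironomycin, against 44.1, 40.4 and 36 CPM in DMSO, a 2.43-fold rise (1.28 ± 0.16, edgeR adjusted p = 2.4e-06). In each knockout the lowest ironomycin library was above the highest DMSO library, and replicate 1 of PGP knockout cells with ironomycin was well above the other two. Each call held without any 1 library. Without PGP knockout ironomycin replicate 1 the log2 change was 0.99, and without replicate 2 of wild type at 6 h the values were 0.63 ± 0.18 for 6 h against DMSO and 0.80 ± 0.17 for 24 h against 6 h.

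The transcripts of the antizymes OAZ1 (ENSG00000104904) and OAZ2 (ENSG00000180304) did not pass in any comparison, and every pair of ironomycin and DMSO groups overlapped. OAZ1 ranged from 721 to 1174 CPM over the 21 libraries. Its log2 differences between ironomycin and DMSO were -0.19 ± 0.15 at 6 h and -0.24 ± 0.15 at 24 h in wild type cells, -0.13 ± 0.15 in HK2 knockout cells and -0.10 ± 0.15 in PGP knockout cells (edgeR adjusted p = 0.225 to 0.644). The 95% intervals of these 4 differences lay between -0.55 and 0.20, so that changes of more than about that size were outside them. OAZ2 ranged from 16.1 to 32.5 CPM, and its 4 log2 differences lay between -0.22 and -0.04 (edgeR adjusted p = 0.308 to 0.883), with 95% intervals between -0.55 and 0.29. Antizyme protein depends on a polyamine-sensed frameshift during translation, which these counts do not report.

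AZIN1 (ENSG00000155096), the antizyme inhibitor, did not pass in any comparison either, though its values at 24 h were above those at 6 h. In wild type cells it stood at 137, 136 and 171 CPM in DMSO, at 143, 93.4 and 143 CPM after 6 h and at 154, 178 and 185 CPM after 24 h. The 3 libraries at 24 h lay above the 3 at 6 h, while each time overlapped DMSO. The log2 difference between 24 h and 6 h was 0.44 ± 0.16 (edgeR adjusted p = 0.0617). It passed without the filter on low counts (edgeR adjusted p = 0.0184), with the replicate number as a block (edgeR adjusted p = 0.0151) and without 6 h replicate 3 (0.52, edgeR adjusted p = 0.0463), and was 0.27 ± 0.15 without 6 h replicate 2 (edgeR adjusted p = 0.272). In PGP knockout cells AZIN1 stood at 182, 140 and 170 CPM with ironomycin, against 135, 116 and 139 CPM in DMSO. The groups were separate by about 1 CPM, and the log2 difference of 0.33 ± 0.16 did not pass (95% interval -0.0021 to 0.67, edgeR adjusted p = 0.125). The difference in HK2 knockout cells was 0.20 ± 0.16 (edgeR adjusted p = 0.370), with 189, 161 and 241 CPM with ironomycin, against 155, 183 and 177 CPM in DMSO. Reads of the antisense gene AZIN1-AS1 numbered 254 over all libraries, against 16346 for AZIN1.

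Counted together, 4 of the 8 genes were called lower and 1 higher at 6 h in wild type cells, where 22.0% of 11610 tested genes were called (11.1% lower and 10.9% higher). At 24 h, 3 were called lower and 1 higher, where 29.8% of genes were called (14.6% lower and 15.3% higher). In HK2 knockout cells 2 were called lower and 1 higher, where 29.4% of genes were called (13.5% lower and 15.9% higher), and in PGP knockout cells 2 lower and 1 higher, where 31.5% of genes were called (15.4% lower and 16.1% higher). Between 24 h and 6 h, SAT1 was the 1 gene of the 8 called, where 16.6% of genes were called (8.48% higher and 8.08% lower). All the genes called lower were synthesis genes, and AMD1 and SRM were among them each time. The median log2 fold change of the 4 synthesis genes was -0.60 at 6 h and -0.64 at 24 h in wild type cells, -0.45 in HK2 knockout cells and -0.51 in PGP knockout cells, while the median over all tested genes was between 0.02 and 0.04. In knockout cells the share of the 8 genes called was not far from that of all genes. With 1 of the 6 libraries left out in turn, 2 to 3 of the 8 genes were called at 6 h. The 6 h and 24 h comparisons in wild type cells share their DMSO libraries.

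**Figure D2:**
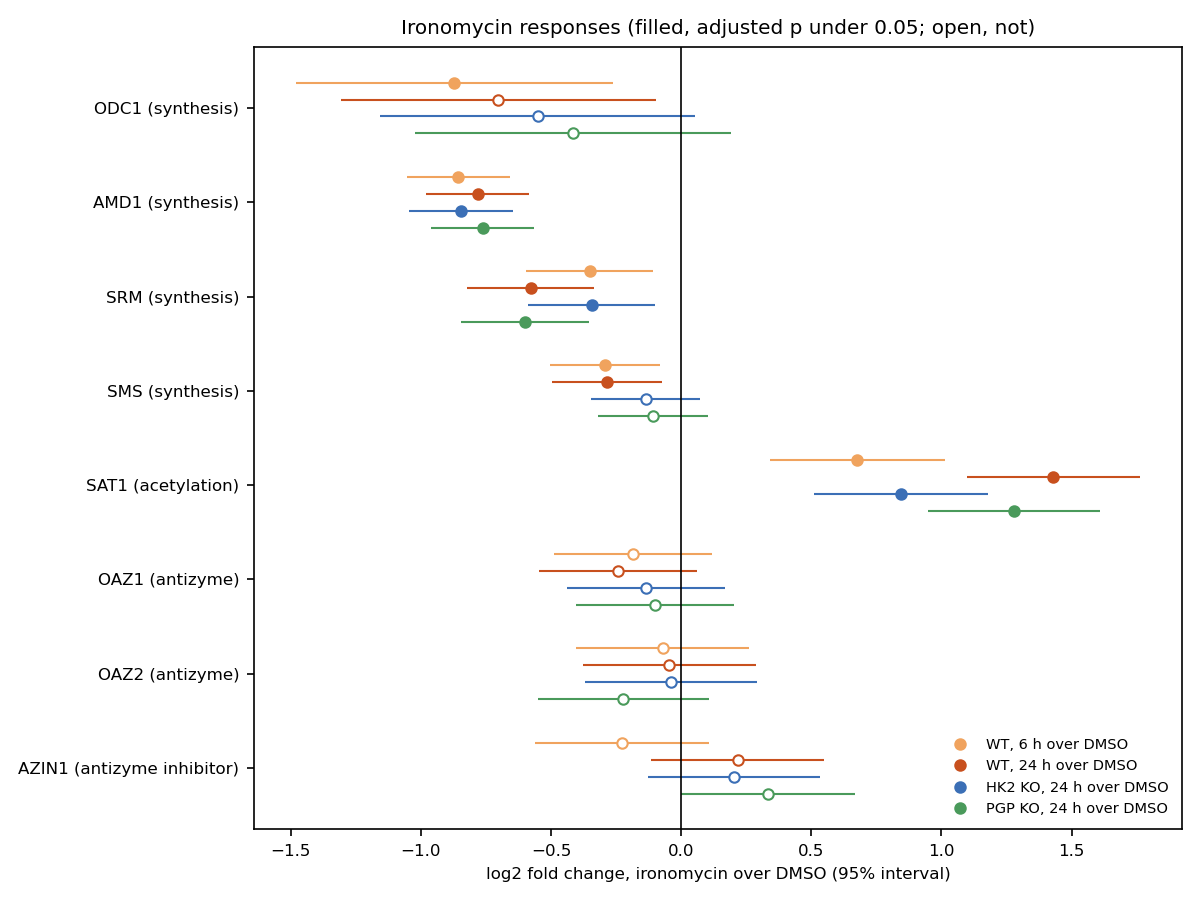
Log2 fold change of ironomycin over DMSO (horizontal axis) with its 95% interval (bar) for each of the 8 genes in 4 comparisons; filled points have an edgeR adjusted p under 0.05. The AMD1 points lie between -0.86 and -0.76 and the SAT1 points between 0.68 and 1.43, with no interval reaching 0.

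The balance of synthesis and antizyme transcripts was followed as a ratio within each library, which does not depend on library scaling. The antizyme sum was almost all OAZ1, which averaged 993 CPM in wild type cells in DMSO, against 22.1 CPM for OAZ2. The ratio therefore says little of OAZ2. Counts at 3′ ends of different genes are captured with unequal efficiency, so only differences of a ratio between groups are read, and as scores over chosen genes they carry no test. The summed level of ODC1, AMD1, SRM and SMS averaged 887 ± 46.2 CPM in DMSO, 588 ± 25.2 CPM at 6 h and 577 ± 33.4 CPM at 24 h in wild type cells (SD, n = 3 each). It averaged 616 ± 16.1 CPM with ironomycin and 864 ± 17.3 CPM in DMSO in HK2 knockout cells, and 597 ± 37.3 CPM with ironomycin and 858 ± 65.2 CPM in DMSO in PGP knockout cells (SD, n = 3 each). The ironomycin and DMSO libraries were separate in each cell type, while the summed antizymes overlapped, averaging 1016 ± 154 CPM in DMSO, 895 ± 93.7 CPM at 6 h and 861 ± 93.7 CPM at 24 h in wild type cells. The log2 ratio of the synthesis sum to the antizyme sum in wild type cells averaged -0.19 ± 0.18 with DMSO, -0.60 ± 0.11 after 6 h and -0.57 ± 0.20 after 24 h. In HK2 knockout cells it was -0.60 ± 0.31 with ironomycin and -0.27 ± 0.09 in DMSO, and in PGP knockout cells -0.49 ± 0.24 with ironomycin and -0.07 ± 0.03 in DMSO. The groups were separate in wild type and PGP knockout cells and overlapped in HK2 knockout cells, where 1 ironomycin library at -0.32 lay above 1 DMSO library at -0.37.

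The ratio of ODC1 to SAT1, the first step of synthesis over the first step of breakdown, moved further. It restates the values above of a gene lower on average and a gene called higher, so a larger move follows from how it is built. Its log2 value was 2.62, 2.29 and 2.92 in DMSO, 1.36, -0.18 and 1.57 at 6 h and 0.13, 0.77 and 0.53 at 24 h in wild type cells. All 6 ironomycin libraries lay below all 3 DMSO libraries, and replicate 2 at 6 h lay below every other wild type library. In HK2 knockout cells the log2 ratio was 0.93, 1.05 and 1.30 with ironomycin, against 2.35, 2.57 and 2.55 in DMSO, and in PGP knockout cells -0.30, 0.52 and 1.1 with ironomycin, against 1.68, 1.84 and 2.73 in DMSO. Again no library of one treatment reached the other. SAT1 alone was separate in each of these comparisons, while ODC1 alone overlapped at 6 h and in PGP knockout cells. As a linear ratio of group means on the log scale, ODC1 over SAT1 counts in wild type cells was 6.11 with DMSO, 1.89 after 6 h of ironomycin and 1.39 after 24 h, then 2.13 with ironomycin and 5.62 in DMSO in HK2 knockout cells, and 1.36 with ironomycin and 4.24 in DMSO in PGP knockout cells. Without replicate 2 at 6 h, the log2 ratio at 6 h differed from DMSO by -1.15, against -1.69 with it.

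**Figure D3:**
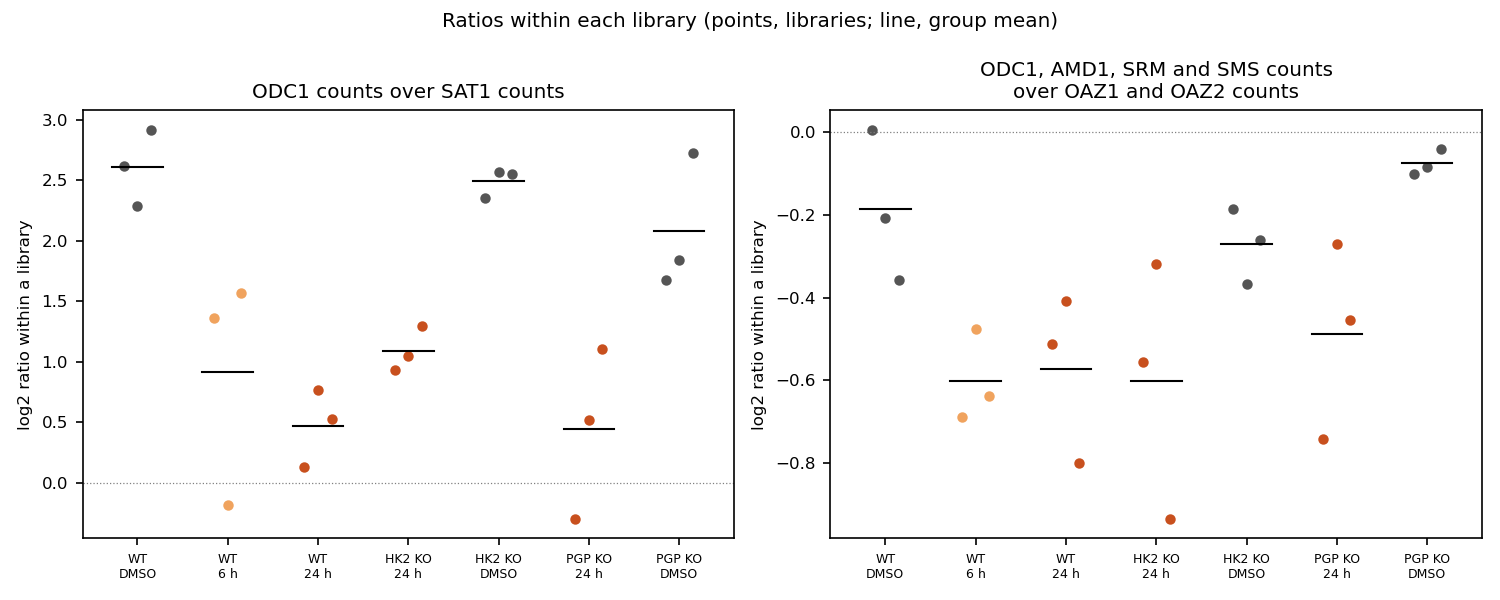
Log2 ratio of ODC1 to SAT1 counts (left) and of summed synthesis to summed antizyme counts (right) in each library (points) of the 7 groups, with the group mean as a line. On the left, every ironomycin library lies below every DMSO library of its cell type; on the right, the HK2 knockout groups overlap.

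The knockouts by themselves did not change any of the 8 genes past the threshold in DMSO. Between HK2 knockout and wild type cells 0 of 8 were called, where 0.00861% of genes were called, and 0 of 8 had an unadjusted p under 0.05 (606 of all genes did). Between PGP knockout and wild type cells 0 of 8 were called, where 0% of genes were called, and OAZ2 was the 1 gene of the 8 with an unadjusted p under 0.05 (648 of all genes did). OAZ2 stood at 24.1, 28.9 and 32.5 CPM in PGP knockout cells in DMSO, against 20.3, 21.3 and 24.7 CPM in wild type cells in DMSO. Those groups overlapped, and the log2 difference was 0.37 ± 0.16 (edgeR adjusted p = 0.875). DESeq2 also called 0 of the 8 in both comparisons. SAT1 in PGP knockout cells in DMSO, at 36 to 44.1 CPM, lay above wild type cells in DMSO, at 30.7 to 33.8 CPM, with a log2 difference of 0.29 ± 0.17 (edgeR adjusted p = 0.886).

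In HK2 knockout cells in DMSO, SMS lay above and SRM below wild type cells in DMSO with no overlap, at log2 differences of 0.17 ± 0.10 for SMS and -0.12 ± 0.12 for SRM (edgeR adjusted p = 1.00 each). The share of all tested genes separated in this way was not counted. These separations, and that of SAT1 in PGP knockout cells in DMSO, are therefore not read as differences.

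The response to ironomycin at 24 h was also compared between each knockout and wild type, as a difference of 2 log2 fold changes that share the wild type libraries. None of the 8 genes was called in either knockout (0 of 8 each, where 0% of genes were called, and 0 of 8 each by DESeq2). For SAT1 the HK2 knockout response minus the wild type response was -0.59 ± 0.23 (95% interval -1.05 to -0.12). SAT1 was alone among these genes in an unadjusted p under 0.05 (edgeR adjusted p = 1.00, with 267 of all genes under 0.05). Leaving out any 1 library kept it between -0.63 and -0.51 with the adjusted p unchanged at 1.00. At 24 h SAT1 averaged 62.6 ± 3.03 CPM in HK2 knockout cells and 88.3 ± 1.01 CPM in wild type cells, both with ironomycin (SD, n = 3 each). For AMD1 the difference of responses was -0.06 ± 0.13 in HK2 knockout cells (95% interval -0.34 to 0.21) and 0.02 ± 0.13 in PGP knockout cells (95% interval -0.26 to 0.30), so that differences beyond these bounds were outside the interval. For ODC1 the interval was wide, from -0.70 to 1.00 in HK2 knockout cells and from -0.57 to 1.14 in PGP knockout cells, and a difference between genotypes of up to that size was not detectable at this spread. For the PGP knockout 0 of the 8 had an unadjusted p under 0.05 (221 of all genes did).

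Across the 21 libraries, AMD1 and SRM varied together, with a Pearson correlation of their log2 CPM of 0.80, and each ran against SAT1, at -0.80 for AMD1 and -0.83 for SRM. ODC1 correlated less with AMD1, at 0.54, and with SRM, at 0.39, and about as much with OAZ1 and SMS, at 0.59 each. These values describe 21 libraries that share 7 groups and their treatment contrast. Of 7768 genes whose mean reached 10 CPM, those most like ODC1 over the 21 libraries were MFSD14B, PSMC2 and MRPL36 (Pearson r = 0.92 each), and those most like SAT1 were RDH11 (r = 0.96), DDX60 and ARL6IP5 (r = 0.93 each). The RDH11 product is a retinol dehydrogenase, and PSMC2 is a subunit of the proteasome.

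The wider pathway was read through 6 lists of 45 genes, of which 32 had counts enough for the test. At 6 h in wild type cells 5 rose, 6 fell and 21 did not pass, and at 24 h 6 rose, 3 fell and 23 did not pass. These shares, 11 of 32 and 9 of 32, stand beside 22.0% and 29.8% of all genes. Of the 32, 30 passed the filter on low counts in the DMSO libraries alone, all but OAT and SLC12A8. Over those 30, 4 rose and 6 fell at 6 h, and 5 rose and 3 fell at 24 h, in wild type cells. In HK2 knockout cells 6 of those 30 rose and 4 fell, and in PGP knockout cells 5 rose and 3 fell. Of the 32, in HK2 knockout cells 7 rose and 4 fell, where 29.4% of all genes were called, and in PGP knockout cells 6 rose and 3 fell, where 31.5% of all genes were called, while 0 of 32 were called between knockouts and wild type in DMSO or in the differences of response, by edgeR or by DESeq2. An unadjusted p under 0.05 in edgeR was found for 2 of the 32 between HK2 knockout and wild type cells in DMSO, beside 606 of all 11610 tested genes. OAT was 1 of these 2. Between PGP knockout and wild type cells in DMSO it was found for 0 of the 32, beside 648 of all genes. In the differences of response it was found for 1 in the HK2 knockout and 0 in the PGP knockout, beside 267 and 221 of all genes. These counts are not read as differences. Without replicate 2 of wild type at 6 h, the calls at 6 h of SMOX, SLC7A1, MAT2A, MTAP, ALDH18A1, SLC3A2 and SLC12A8 held and those of PAOX, EIF5A, EIF5A2 and ATP13A3 were lost.

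Among the 6 other regulators and oxidases, spermine oxidase SMOX, which turns spermine back into spermidine, rose at both times. It averaged 7.94 ± 1.26 CPM in DMSO, 17.5 ± 2.75 CPM at 6 h and 18.5 ± 3.07 CPM at 24 h in wild type cells (SD, n = 3 each), log2 fold changes of 1.14 ± 0.22 (edgeR adjusted p = 6.9e-04) and 1.22 ± 0.22 (edgeR adjusted p = 1.8e-04). SMOX also rose by 0.97 ± 0.23 in both HK2 knockout cells (edgeR adjusted p = 0.00288) and PGP knockout cells (edgeR adjusted p = 0.00228). The antizyme inhibitor AZIN2, a low-count gene, averaged 1.49 ± 0.17 CPM in DMSO, 2.03 ± 0.82 CPM at 6 h and 6.79 ± 0.72 CPM at 24 h. It rose by 2.18 ± 0.32 at 24 h (edgeR adjusted p = 2.0e-05). SAT2, a relative of SAT1 known mainly for acetylating thialysine, averaged 2.2 ± 0.90 CPM in DMSO, 4.01 ± 2.03 CPM at 6 h and 7.43 ± 0.74 CPM at 24 h, and rose by 1.78 ± 0.42 at 24 h (edgeR adjusted p = 0.00218). AZIN2 and SAT2 were also called higher in both knockouts. The polyamine oxidase PAOX rose at 6 h by 1.21 ± 0.40 (edgeR adjusted p = 0.0326). That call was lost without DMSO replicate 1 (1.20, adjusted p = 0.0846), 2 (1.07, adjusted p = 0.110) or 3 (1.41, adjusted p = 0.0514) or without 6 h replicate 2 (0.80, adjusted p = 0.207), and with the 2 groups fitted alone (edgeR adjusted p = 0.0807).

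Of the 10 tested genes that recycle methionine and the methylthioadenosine left over from polyamine synthesis, 0 rose and 2 fell against DMSO in wild type cells at 6 h, and 0 rose and 2 fell at 24 h. Among all tested genes 22.0% were called at 6 h and 29.8% at 24 h, so this list did not stand out by its count. MAT2A, which makes the S-adenosylmethionine that AMD1 uses, averaged 139 ± 10.4 CPM in DMSO, 62.3 ± 11.4 CPM at 6 h and 107 ± 11.6 CPM at 24 h (SD, n = 3 each). It fell by 1.16 ± 0.14 on the log2 scale at 6 h (edgeR adjusted p = 2.6e-06) and by 0.38 ± 0.13 at 24 h (edgeR adjusted p = 0.0332), and it was 0.78 higher at 24 h than at 6 h (edgeR adjusted p = 3.9e-04). The 24 h call was lost without DMSO replicate 2 (-0.39, adjusted p = 0.0677), DMSO replicate 3 (-0.36, adjusted p = 0.0937), 24 h replicate 1 (-0.38, adjusted p = 0.0790) or 24 h replicate 3 (-0.35, adjusted p = 0.112). MAT2A also fell in both knockouts, by 0.58 ± 0.14 in HK2 knockout cells and by 0.55 ± 0.13 in PGP knockout cells. MTAP, which cleaves methylthioadenosine, fell at 6 h by 0.64 ± 0.14 (edgeR adjusted p = 0.00195), with 32.4 ± 5.79 CPM at 6 h and 50.6 ± 4.19 CPM in DMSO. ADI1, a later enzyme of the same salvage route, fell at 24 h by 0.52 ± 0.11 (edgeR adjusted p = 0.00147), with 156 ± 4.97 CPM at 24 h and 223 ± 20.9 CPM in DMSO.

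EIF5A, the translation factor that carries hypusine, an amino acid built from spermidine, fell at both times. It averaged 153 ± 4.99 CPM in DMSO, 115 ± 15.5 CPM at 6 h and 98.8 ± 10.7 CPM at 24 h (SD, n = 3 each), and fell by 0.41 ± 0.11 at 6 h (edgeR adjusted p = 0.00970) and by 0.63 ± 0.11 at 24 h (edgeR adjusted p = 1.3e-04). The 6 h call was lost without 6 h replicate 2 (-0.30, edgeR adjusted p = 0.0510) and with the 2 groups fitted alone (edgeR adjusted p = 0.0814). EIF5A also fell in HK2 knockout cells (-0.48 ± 0.11, edgeR adjusted p = 0.00219). Its relative EIF5A2 was called lower at 6 h (-0.87 ± 0.31, edgeR adjusted p = 0.0462), with 2.32 ± 0.53 CPM at 6 h and 4.28 ± 0.45 CPM in DMSO. That call was lost by DESeq2 (adjusted p = 0.106), without the filter on low counts (edgeR adjusted p = 0.150), with the 2 groups fitted alone (edgeR adjusted p = 0.111) and without any 1 of the 6 libraries (edgeR adjusted p = 0.0588 to 0.153). EIF5A2 was called higher with ironomycin than in DMSO in HK2 knockout cells (0.83 ± 0.29, edgeR adjusted p = 0.0353). The enzymes that make hypusine, DHPS and DOHH, did not pass at either time in wild type cells. In PGP knockout cells 1 of the 4 tested genes of this list was called lower and 0 higher, where 31.5% of all genes were called. EIF5A and DOHH were those with an unadjusted p under 0.05 in edgeR there.

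Of the 6 tested genes of ornithine and arginine supply, 1 rose and 1 fell at 6 h and 1 rose at 24 h in wild type cells, where 22.0% and 29.8% of all genes were called. SLC7A1, an arginine importer, averaged 429 ± 22.7 CPM in DMSO, 760 ± 57.1 CPM at 6 h and 506 ± 16.6 CPM at 24 h (SD, n = 3 each), and rose at 6 h by 0.82 ± 0.11 (edgeR adjusted p = 1.3e-05). ASS1, an enzyme of arginine synthesis, rose at 24 h by 1.14 ± 0.20 (edgeR adjusted p = 1.2e-04), with 125 ± 12.5 CPM at 24 h and 56.7 ± 12.6 CPM in DMSO. ALDH18A1, which starts proline and ornithine synthesis from glutamate, was called lower at 6 h (-0.84 ± 0.22, edgeR adjusted p = 0.00802). Its 3 libraries at 6 h ranged from 18.6 to 52.7 CPM, against 66.8 to 70.5 CPM in DMSO, and without 6 h replicate 2 the change was -0.52 ± 0.15 (edgeR adjusted p = 0.0179). With the 2 groups fitted alone the call was lost (edgeR adjusted p = 0.112).

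Of the 4 tested transport genes, SLC3A2, the heavy chain of several amino acid transporters, rose at 6 h by 0.84 ± 0.15 (edgeR adjusted p = 4.1e-04) and at 24 h by 0.54 ± 0.15 (edgeR adjusted p = 0.00949). The 24 h call was lost without DMSO replicate 1 (0.43, adjusted p = 0.0707) or 24 h replicate 2 (0.46, adjusted p = 0.0562). SLC12A8, described as a nicotinamide mononucleotide and polyamine transporter, was called higher at both times on very few counts. It did not pass the filter on low counts in the DMSO libraries alone and entered the test through groups where it was high, so its call is not read as support. Its 3 libraries together held 8 counts in DMSO, 78 at 6 h and 30 at 24 h, with fitted changes of 3.33 ± 0.53 at 6 h (edgeR adjusted p = 9.3e-05) and 1.93 ± 0.60 at 24 h (edgeR adjusted p = 0.0173). The 24 h call was lost without DMSO replicate 1 (1.40, adjusted p = 0.0801), DMSO replicate 2 (1.80, adjusted p = 0.0594) or 24 h replicate 1 (1.66, adjusted p = 0.0766), and the fitted changes depend on the few DMSO counts, with 4.51 at 6 h and 3.09 at 24 h without DMSO replicate 3. ATP13A3, a polyamine-transporting ATPase, was called lower at 6 h (-0.61 ± 0.18, edgeR adjusted p = 0.0163), which was lost without DMSO replicate 3 (-0.50, adjusted p = 0.0911) or 6 h replicate 2 (-0.47, adjusted p = 0.0745), and with the 2 groups fitted alone (edgeR adjusted p = 0.0635).

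MYC, which falls outside the rule for named genes and was picked after its values were seen because of the E-boxes above, did not pass. Its lowest library at 6 h held 7.42 CPM and its highest 50.8 CPM, against 58.2 to 80.4 CPM in DMSO, so that the groups did not overlap but the libraries at 6 h spread widely. The log2 difference was -1.01 ± 0.38 at 6 h (edgeR adjusted p = 0.0611) and 0.08 ± 0.36 at 24 h (edgeR adjusted p = 0.904). For MYC no value without 6 h replicate 2 is given. MAX, the other of the 2 tested genes of its list, was not called at 6 h or 24 h. Both had an unadjusted p under 0.05 in edgeR at 6 h, and neither did at 24 h. The part of MYC in the ODC1 and SRM values was not tested.

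**Figure D4:**
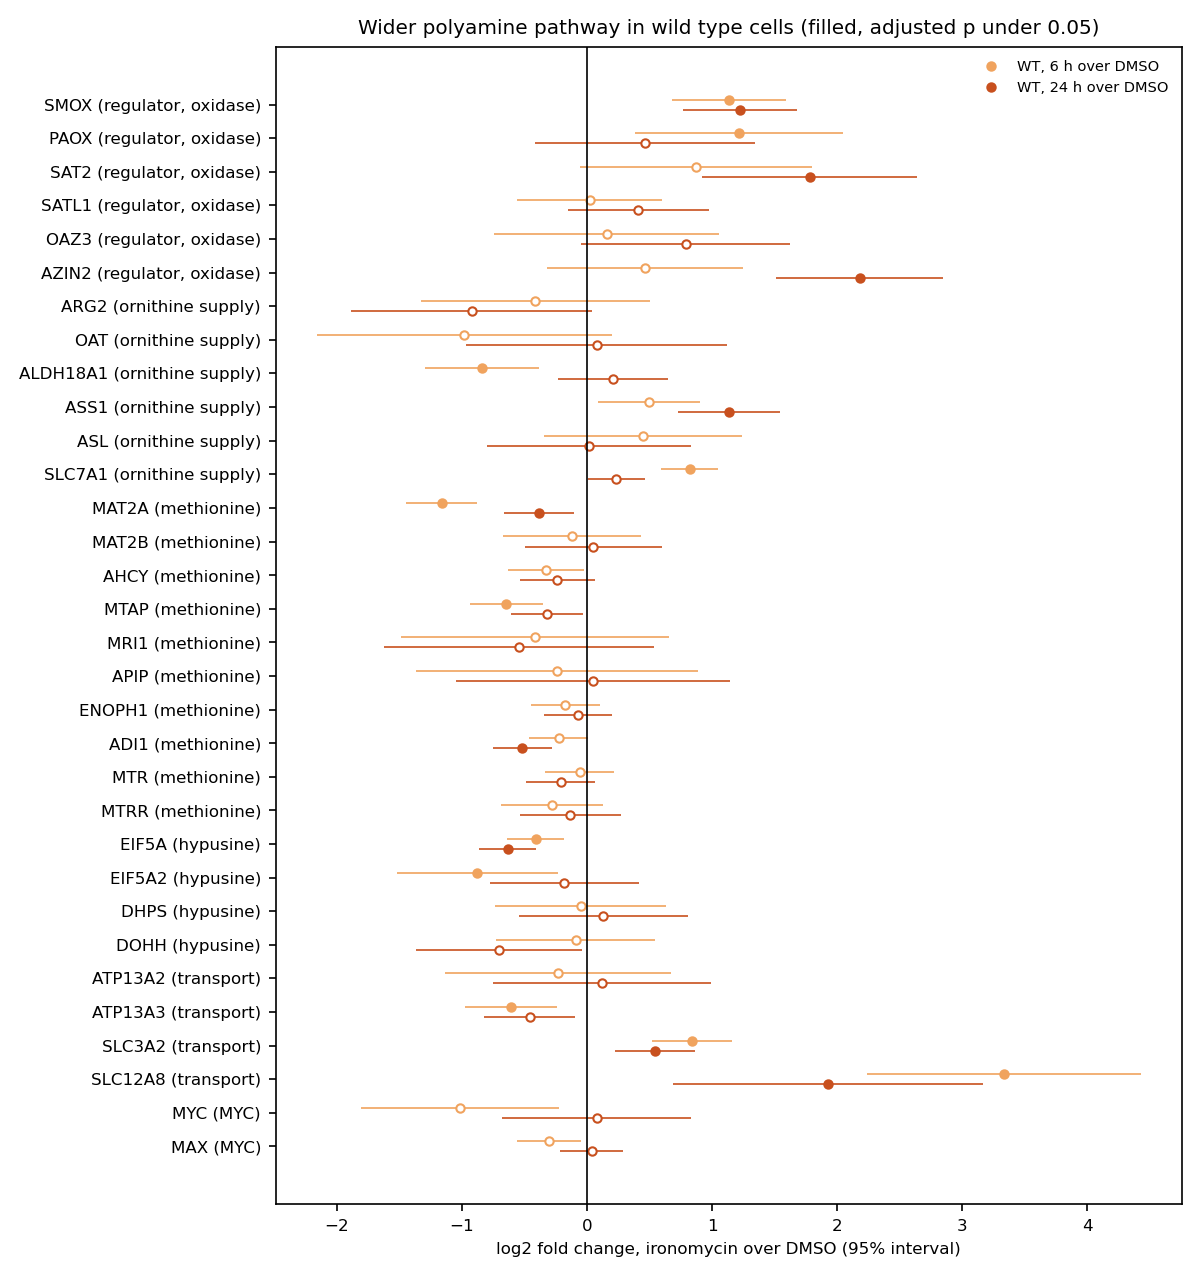
Log2 fold change of ironomycin over DMSO in wild type cells (horizontal axis) with its 95% interval (bar) for the 32 tested genes of the wider pathway, by list, at 6 h and 24 h; filled points have an edgeR adjusted p under 0.05. SMOX lies to the right of 0 at both times, MAT2A and EIF5A to the left, and AZIN2 and SAT2 are filled at 24 h but not at 6 h.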

How the data were processed

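Total RNA was made into libraries with the Lexogen QuantSeq 3′ kit, per the labels' protocols. The submitters' processing notes name bcl2fastq 2.20.0.422, the aligner HISAT2, the counter HTSeq and the build hg19. The deposited table holds raw counts of reads for each Ensembl gene, and the strand setting is not given in the sources used here, so antisense and overlapping genes are uncertain. Symbols were found for 51661 of 54042 genes.

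Counts were tested with edgeR 4.0.16 and limma 3.58.1 in R 4.3.3, with TMM factors, a filter on low counts (filterByExpr, at least 10 counts, 15 in total; 11610 genes kept) and 1 quasi-likelihood fit of all 21 libraries, in 9 comparisons. Calls needed an adjusted p (Benjamini-Hochberg, over the 11610 genes) under 0.05. Alternatives were RLE size factors, no filter, DESeq2 1.42.0, a block for replicate number, the compared groups alone, and each of 21 libraries left out. The pipeline was tested on simulated data.

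The genes and lists were chosen with earlier results of these data known. Named were the 8 genes, the list genes called at 6 h or 24 h in wild type cells, the 3 genes most like ODC1 and SAT1 by Pearson correlation, and HK2 and PGP. Same-numbered libraries deviated together (r = 0.243, 0.164 and 0.247) between ironomycin and DMSO in PGP knockout cells. The labels do not say what the numbers mark, so the printed values come from the fit without the block. Between ironomycin and DMSO in PGP knockout cells the block changed no call of the 8 genes.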

Additional observations from a re-analysis of the deposited data

Results flagged for a closer look

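SAT1 was flagged because its level differed between the 2 times of ironomycin in wild type cells by a test of that difference itself. It averaged 88.3 ± 1.01 CPM at 24 h and 52.3 ± 8.61 CPM at 6 h (SD, n = 3 each), a log2 difference of 0.754 (SE 0.156, edgeR adjusted p = 0.00164), and all 3 libraries at 24 h lay above all 3 at 6 h. Leaving out 1 library gave 0.60 to 0.82 (edgeR adjusted p = 0.00235 to 0.0177). No DMSO libraries matched in time were labelled, so time in culture and time with ironomycin cannot be told apart.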

How the results depend on the processing

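Of 1216 recomputed log2 changes of single genes, 1088 kept their direction and side of the threshold, 59 lost the call, 19 gained it and 50 changed sign. AMD1 and SAT1 kept direction and call in all 4 comparisons with DMSO under every alternative run. With the compared groups alone, 2 of the 8 genes and 1212 genes in all were called at 6 h in wild type cells, 749 genes between 24 h and 6 h, 17 between HK2 knockout and wild type in DMSO, 2 between PGP knockout and wild type in DMSO, and 1 in the PGP knockout difference of response. Without the filter, 2 of the 8 genes were called between 24 h and 6 h, and 59 genes for HK2 knockout and 96 for PGP knockout against wild type in DMSO, 17 in the HK2 knockout difference of response and 18 in that of the PGP knockout. DESeq2 called 23 genes and the replicate block 19 between HK2 knockout and wild type in DMSO, against 1, and the block called 2 of the 8 genes between 24 h and 6 h, so that AZIN1 joined SAT1. Of the 8 genes' calls against DMSO, the block changed that of ODC1 at 24 h in wild type cells. As a mean of log2 CPM, the synthesis to antizyme ratio of PGP knockout minus wild type in DMSO was -0.154, against 0.111. Leaving out 1 library gave 2 to 3 of the 8 genes at 6 h, 1271 to 2220 genes and 1 to 2 of the 8 genes between 24 h and 6 h, and 0 to 8 genes between HK2 knockout and wild type in DMSO. The sign changed, for values that were not called, in SMS without the filter (-0.000606 between 24 h and 6 h, -0.0126 between PGP knockout and wild type in DMSO) and in OAZ2 with the groups alone (-0.0185, HK2 knockout difference of response). It also changed on leaving out 1 library: OAZ2 at 6 h (-0.216 to 0.102) and 24 h (-0.119 to 0.0281); between 24 h and 6 h, ODC1 (-0.183 to 0.637), SMS (-0.0911 to 0.0868) and OAZ2 (-0.165 to 0.169); in HK2 knockout cells OAZ1 (-0.363 to 0.0186) and OAZ2 (-0.156 to 0.0595). For HK2 knockout against wild type in DMSO it changed in ODC1 (-0.176 to 0.149), AMD1 (-0.0788 to 0.000395), OAZ1 (-0.0422 to 0.169) and OAZ2 (-0.0113 to 0.205), and for PGP knockout in SMS (-0.0296 to 0.0399). In the HK2 knockout difference of response it changed in ODC1 (-0.0437 to 0.310), OAZ1 (-0.103 to 0.263), OAZ2 (-0.0932 to 0.123) and AZIN1 (-0.196 to 0.111), and in that of the PGP knockout in SRM (-0.114 to 0.0636), AMD1 (-0.0547 to 0.0918) and AZIN1 (-0.00592 to 0.215). The cause was not tested. The wide spread of ODC1 between 3 libraries a group limits what is said of it. Replicate 3 held the highest ODC1 level in every group except wild type at 24 h, so part of this spread followed the replicate number. With the block, the SE of the ODC1 change in HK2 knockout cells was 0.215, against 0.292 in the main fit. What the replicate number marks is not known.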
